A study of Mus musculus with 6 samples.

Results

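The elastic fibre and lysyl oxidase genes were examined in wound tissues of diabetic mice. They were taken by name and comprised Eln, Fbn1, Fbn2, Fbln5, Efemp2, Lox, Loxl1, Loxl2, Loxl3 and Loxl4, 10 of the 33184 gene IDs measured. RNA-seq was performed on 6 libraries of dorsal skin wounds of db/db mice on the C57BL/Ks background, a strain that lacks a working leptin receptor and becomes obese and diabetic. A full-thickness wound of 0.6 cm was made, siRNA was injected around it at dpi1 (1 day post-injury) and the tissue was frozen at dpi4, whereas the sample titles carry day 3. Per the labels, NC 1, 2 and 3 were given a control siRNA, and SFRP2-siRNA 1, 2 and 3 an siRNA against Sfrp2, a secreted modulator of Wnt signalling. The Sfrp2 level itself went against these labels, as given below. Both groups carried the db/db genotype, the wound and an injection, and no unwounded or uninjected tissue was analysed here. The 3 libraries labelled SFRP2-siRNA bear the names of 3 siRNA sequences in the study's supplement, and whether each received a different one is not stated. The labels do not say that each library was a separate animal, so p-values measure the spread between these samples, which may be technical, and the age of the mice was not given in the sources used here.

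Elastic fibres give skin its recoil. Tropoelastin, the product of Eln, is deposited on microfibrils built from the fibrillins Fbn1 and Fbn2, and the fibulins Fbln5 and Efemp2 (fibulin-4) bring elastin, microfibrils and cross-linking enzymes together. The lysyl oxidases Lox and Loxl1 to Loxl4 are secreted copper-dependent amine oxidases that oxidize lysine side chains of elastin and collagen, from which covalent cross-links form. In skin wounds, fibroblasts are the main known source of these proteins.

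Levels are given as FPKM, reads per kilobase of gene length scaled to the total of the library, so that levels of different genes can be set side by side. The values implied totals of 42.9 M to 47.1 M reads per library. The members rested on between 152 reads, for Loxl4 in NC 1, and 35091 reads, for Fbn1 in NC 2. Fold changes are differences of log2(FPKM + 1), SFRP2-siRNA minus NC, which understate the change of genes near 1 FPKM. They were tested with limma over the 16005 genes that averaged 0.5 FPKM or more, and all 10 members were above that limit. An exact permutation test (two-sided) was added for single values, and with 3 against 3 libraries its p cannot go below 0.1.

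Sfrp2 (ENSMUSG00000027996), the target of the siRNA, was examined first. It had 11.6, 40.6 and 14.1 FPKM in NC 1, 2 and 3, and in SFRP2-siRNA 1, 2 and 3, as labelled, it had 50.6, 54.6 and 55.2 FPKM. The siRNA target was thus higher where the label would have it lower (log2 fold change 1.45, SE 0.43, adjusted limma p = 0.518, exact permutation p = 0.1). By immunofluorescence, a measure of protein and not of RNA, the study reported decreased SFRP2 in siRNA-treated wounds of diabetic mice at dpi3. Of its exon bases, 16.1% are shared with Gm26771. Whether the labels of the groups were exchanged was not tested. Every direction below is one between libraries so labelled. NC 2 stood apart from the other NC libraries here too. SFRP2-siRNA 1 stood apart in the hair follicle markers, whose summed level was 23.6 FPKM there against 2370 to 5022 FPKM in the other libraries. Krt71 and Krt25, keratins of the inner root sheath, had 6.17 and 6.69 FPKM in SFRP2-siRNA 1 and at least 744 and 786 FPKM elsewhere.

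The mean of each of the 10 members was higher in SFRP2-siRNA than in NC, with log2 fold changes from 0.26 (Eln) to 0.75 (Efemp2) and a median of 0.62. The median of all genes tested was 0.13, and 71.8% of them had a log2 fold change above 0. In limma, no member passed the threshold of the study, an absolute log2 fold change above 1 with an adjusted p under 0.05. Neither did any other gene (0%). With DESeq2, the study itself reported genes past this threshold in wound tissues at dpi4, more of them lower than higher. The adjusted p of the members lay between 0.518 and 0.574 in limma. At an unadjusted p under 0.05, 4 members were higher, namely Fbn2, Fbln5, Efemp2 and Loxl1, beside 6.72% of all genes, and 2.86% of all genes were lower. In 2 members, Fbln5 and Efemp2, the groups did not overlap, as in 13.9% of all genes in that direction. Under median-of-ratios scaling 1 member, Fbln5, was at that p, and the shares of all genes turned to 2.74% higher and 4.67% lower. Under quantile normalization it was again Fbln5, with 2.96% higher and 4.3% lower. The count of 4 depended on single libraries as well. It was 2 without NC 1, 9 without NC 2 and 1 without NC 3, beside 2.87%, 9.78% and 5.74% of all genes. It was 1, 0 and 1 without SFRP2-siRNA 1, 2 and 3, beside 5.56%, 3.75% and 6.87%.

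**Figure D1:**
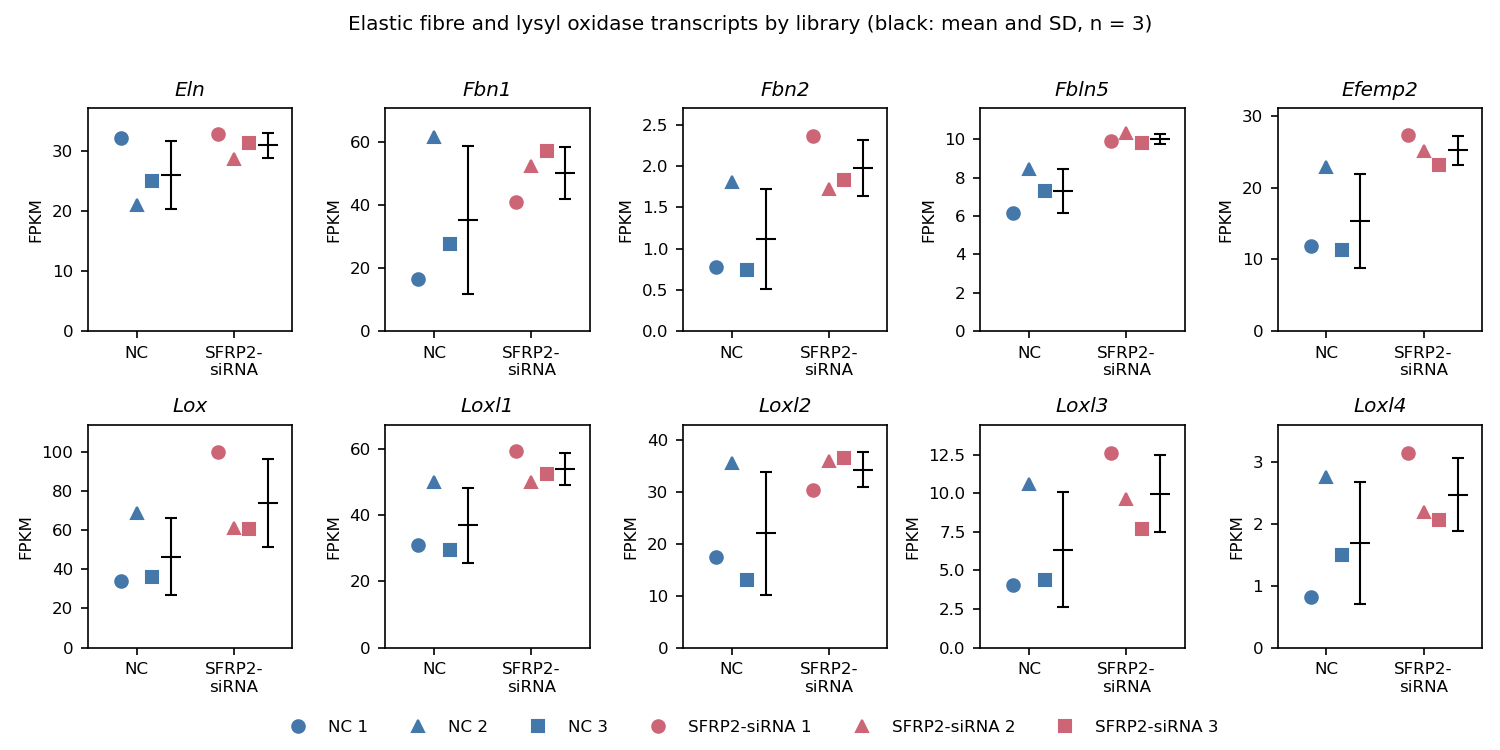
FPKM (vertical axes, from 0) of the 10 members in the 6 libraries, with 1 panel per gene, blue symbols for NC 1 to 3, red symbols for SFRP2-siRNA 1 to 3, and black bars for the mean and SD of each group (n = 3). NC 2 is the highest NC library in 9 panels and the lowest in that of Eln, and the groups are separate only for Fbln5 and Efemp2.

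Lox was the most abundant member and Fbn2 the least. Over the 6 libraries, the mean levels were 60.0 ± 24.1 FPKM for Lox, 45.4 ± 12.2 FPKM for Loxl1, 42.8 ± 17.8 FPKM for Fbn1 and 28.4 ± 4.68 FPKM for Eln (SD, n = 6). Loxl2 followed with 28.2 ± 10.3 FPKM, Efemp2 with 20.2 ± 6.91 FPKM and Fbln5 with 8.66 ± 1.66 FPKM. The lowest were Loxl3 with 8.15 ± 3.46 FPKM, Loxl4 with 2.08 ± 0.84 FPKM and Fbn2 with 1.54 ± 0.65 FPKM. Between neighbours in this order, the ranges over libraries were separate only for Efemp2 above Fbln5 and for Loxl3 above Loxl4. Lox was nevertheless above Loxl1 in 6 of 6 libraries, Loxl2 above Efemp2 in 6 of 6 and Loxl4 above Fbn2 in 6 of 6. Loxl1 was above Fbn1 in 3 of 6 libraries and Eln above Loxl2 in 3 of 6, so the order of these neighbours did not differ beyond their spread.

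Eln (ENSMUSG00000029675), the elastic core protein, had 32.1, 20.9 and 24.9 FPKM in NC 1, 2 and 3 and 32.8, 28.7 and 31.3 FPKM in SFRP2-siRNA 1, 2 and 3. The groups overlapped, because NC 1 lay above 2 of the 3 libraries labelled SFRP2-siRNA. Group means were 26.0 ± 5.65 and 30.9 ± 2.09 FPKM (SD, n = 3 each), and the log2 fold change was 0.26 (SE 0.18, 95% interval −0.17 to 0.69, adjusted limma p = 0.574, exact permutation p = 0.3). Eln varied least of all members, 1.57-fold between its lowest and highest library. It was also the only member whose lowest NC library was NC 2.

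Fbn1 (ENSMUSG00000027204), the main fibrillin of postnatal tissue, had 16.5, 61.8 and 27.8 FPKM in NC and 41.0, 52.4 and 57.2 FPKM in SFRP2-siRNA. NC 2 held the highest value of all 6 libraries and NC 1 the lowest, a 3.75-fold range, so the groups overlapped. The means of 35.3 ± 23.6 and 50.2 ± 8.30 FPKM (SD, n = 3 each) gave a log2 fold change of 0.68 (SE 0.44, adjusted limma p = 0.562, exact permutation p = 0.4). Of the Fbn1 exon bases, 20.1% are shared with the annotated gene Gm9913, and whether strand was used in counting was not stated, so reads there cannot be assigned to one of the genes.

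Fbn2 (ENSMUSG00000024598), a fibrillin best known from development, had 0.782, 1.81 and 0.743 FPKM in NC and 2.36, 1.73 and 1.83 FPKM in SFRP2-siRNA. NC 1 and NC 3 lay far below the other 4 libraries, and NC 2 lay within the SFRP2-siRNA range. Group means were 1.11 ± 0.606 and 1.97 ± 0.340 FPKM (SD, n = 3 each), with a log2 fold change of 0.52 (SE 0.21, adjusted limma p = 0.518, exact permutation p = 0.2). Fbn2 made up 4.53%, 2.85% and 2.61% of the summed fibrillin FPKM in NC and 5.44%, 3.19% and 3.11% in SFRP2-siRNA. This share overlapped between the groups (exact permutation p = 0.5), so Fbn1 was the predominant fibrillin transcript in each library.

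Fbln5 (ENSMUSG00000021186), which binds tropoelastin and Loxl1, had 6.18, 8.47 and 7.28 FPKM in NC and 9.89, 10.3 and 9.82 FPKM in SFRP2-siRNA. All SFRP2-siRNA libraries were above all NC libraries. Group means were 7.31 ± 1.14 and 10.02 ± 0.285 FPKM (SD, n = 3 each), with a log2 fold change of 0.42 (SE 0.14, adjusted limma p = 0.518) and an exact permutation p of 0.1. Efemp2 (ENSMUSG00000024909), which tethers the Lox precursor to tropoelastin, had 11.8, 22.9 and 11.4 FPKM in NC and 27.3, 25.1 and 23.1 FPKM in SFRP2-siRNA. The groups were separate here as well, although NC 2 came within a small distance of SFRP2-siRNA 3. The means of 15.3 ± 6.52 and 25.2 ± 2.08 FPKM (SD, n = 3 each) gave the highest log2 fold change of the members at the pseudocount of 1, 0.75 (SE 0.27, adjusted limma p = 0.518, exact permutation p = 0.1). With a pseudocount of 0.1 the value of Fbn2 was higher, 0.87 against 0.79 for Efemp2.

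Promoter sequences of RefSeq (GRCm38.p6) were at hand for 4 of the 10 members, namely Fbn1, Fbln5, Efemp2 and Loxl4. The table holds 2 windows for Fbln5, 3 for Efemp2 and 1 each for Fbn1 and Loxl4, and the window of the most upstream start was used, so that motifs at the other starts were not counted. The 250 bases before that start are shown for the pair of fibulins, whose groups did not overlap, and for Fbn1, which had its highest value of all libraries in NC 2. The Fbln5 window is chr12:101819120-101819369 on the minus strand, the Efemp2 window chr19:5473696-5473945 on the plus strand and the Fbn1 window chr2:125506439-125506688 on the minus strand. Each is written 5′ to 3′ in the direction of the gene. Capitals mark GC boxes (GGGCGG) and SMAD elements (CAGAC), either as these letters or as their reverse complements.
Fbln5: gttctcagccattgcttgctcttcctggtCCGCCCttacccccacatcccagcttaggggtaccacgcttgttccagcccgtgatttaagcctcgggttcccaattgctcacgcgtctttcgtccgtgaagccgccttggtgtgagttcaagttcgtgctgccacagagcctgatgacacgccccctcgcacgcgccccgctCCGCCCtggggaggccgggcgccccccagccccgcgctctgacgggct
Efemp2: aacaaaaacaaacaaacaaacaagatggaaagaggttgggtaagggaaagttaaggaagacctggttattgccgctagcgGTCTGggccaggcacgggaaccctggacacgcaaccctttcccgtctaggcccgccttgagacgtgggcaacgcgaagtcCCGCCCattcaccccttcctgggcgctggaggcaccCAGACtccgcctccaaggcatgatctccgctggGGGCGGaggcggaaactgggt
Fbn1: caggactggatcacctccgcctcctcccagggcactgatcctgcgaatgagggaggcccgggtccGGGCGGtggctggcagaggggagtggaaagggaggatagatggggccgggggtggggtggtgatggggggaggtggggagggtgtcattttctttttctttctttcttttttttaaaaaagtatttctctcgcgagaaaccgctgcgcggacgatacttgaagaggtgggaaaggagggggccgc

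On both strands, Fbln5 held 2 GC boxes, Efemp2 2, Fbn1 1 and Loxl4 3. A GC box was present in 32.7% of the 32851 promoter windows of this length in the table. The SMAD element, found in 42.2% of all windows, occurred 2 times in Efemp2 and 1 time in Loxl4, and its letters were not in the Fbln5 and Fbn1 windows. The TATA box (TATAAA, 12.4% of windows) and the AP-1 site (TGANTCA, 6.75% of windows) were in none of these 4 windows. GC content was 59.2% in Fbn1, 65.2% in Fbln5, 59.2% in Efemp2 and 76.0% in Loxl4, beside a median of 52.4% over all windows. These matches are descriptions of letters and not of bound sites.

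Lox (ENSMUSG00000024529), the founding enzyme of the family, had 34.1, 68.9 and 35.9 FPKM in NC and 99.6, 60.9 and 60.7 FPKM in SFRP2-siRNA. NC 2 lay above 2 of the SFRP2-siRNA libraries, and SFRP2-siRNA 1 lay above all others. Group means were 46.3 ± 19.6 and 73.7 ± 22.4 FPKM (SD, n = 3 each), and the log2 fold change of 0.70 (SE 0.33, adjusted limma p = 0.523, exact permutation p = 0.3) was 0.46 without SFRP2-siRNA 1. Loxl1 (ENSMUSG00000032334), the family member most closely tied to elastin, had 31.1, 50.03 and 29.6 FPKM in NC and 59.5, 50.01 and 52.4 FPKM in SFRP2-siRNA. The groups met in NC 2 and SFRP2-siRNA 2, which had nearly the same level. Group means were 36.9 ± 11.4 and 53.9 ± 4.93 FPKM (SD, n = 3 each), with a log2 fold change of 0.57 (SE 0.23, adjusted limma p = 0.518, exact permutation p = 0.2).

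Loxl2 (ENSMUSG00000034205), which acts on collagen IV of basement membranes, had 17.4, 35.6 and 13.1 FPKM in NC and 30.5, 35.99 and 36.5 FPKM in SFRP2-siRNA. Unlike Lox, it was lower in SFRP2-siRNA 1 than in SFRP2-siRNA 2 and 3. Its log2 fold change was 0.73 (SE 0.34, adjusted limma p = 0.523, exact permutation p = 0.2). Loxl3 (ENSMUSG00000000693), a family member with scavenger receptor domains like Loxl2 and Loxl4, had 4.03, 10.6 and 4.34 FPKM in NC and 12.6, 9.61 and 7.66 FPKM in SFRP2-siRNA. NC 2 lay above 2 of the SFRP2-siRNA libraries, and the log2 fold change was 0.67 (SE 0.35, adjusted limma p = 0.534, exact permutation p = 0.3). Loxl3 shares 11.6% of its exon bases with Htra2. Loxl4 (ENSMUSG00000025185) had 0.818, 2.77 and 1.50 FPKM in NC and 3.15, 2.20 and 2.07 FPKM in SFRP2-siRNA. It was the least abundant lysyl oxidase in each library, and its log2 fold change was 0.42 (SE 0.27, adjusted limma p = 0.566, exact permutation p = 0.3).

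The make-up of the family differed between the groups by less than the larger of their SDs for each of the 5 enzymes. Lox contributed 39.0%, 41.0% and 42.5% of the summed lysyl oxidase FPKM in NC and 48.5%, 38.4% and 38.1% in SFRP2-siRNA. Loxl1 contributed 33.5 ± 3.20% and 31.1 ± 1.98%, and Loxl2 18.9 ± 2.99% and 20.1 ± 4.59% (SD, n = 3 each). Lox and Loxl1 thus held most of the lysyl oxidase transcript in every library. Loxl3 contributed 5.36 ± 0.878% and 5.67 ± 0.745%, and Loxl4 1.45 ± 0.454% and 1.41 ± 0.119%. All 5 shares overlapped between the groups, with unadjusted exact permutation p from 0.3 (Loxl1) to 1 (Lox). A p of this size at 3 against 3 libraries does not show that the shares were equal, and leaving out single libraries turned the sign of the difference for Lox, Loxl2, Loxl3 and Loxl4. The summed level was 87.4, 168 and 84.4 FPKM in NC and 205, 159 and 159 FPKM in SFRP2-siRNA (exact permutation p = 0.3).

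**Figure D2:**
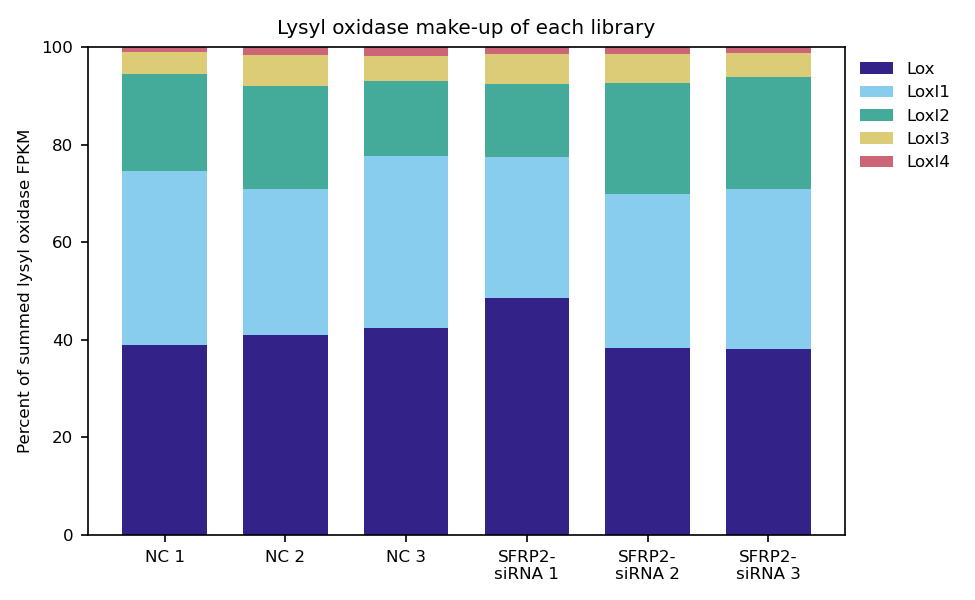
Share of each lysyl oxidase (percent of the summed FPKM of the 5 lysyl oxidases, vertical axis) in the 6 libraries, as stacked bars from Lox at the bottom to Loxl4 at the top. Lox takes 38.1% to 48.5% of each bar, and the highest share is that of SFRP2-siRNA 1.

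The cross-linking enzymes were set against their elastin substrate in each library. The summed lysyl oxidase FPKM was 2.72, 8.03 and 3.39 times that of Eln in NC and 6.25, 5.53 and 5.10 times in SFRP2-siRNA, a ratio computed after the values had been seen. NC 2 had both the lowest Eln level and the highest ratio, and the groups overlapped (exact permutation p = 0.7). Fbn1 was 0.514, 2.95 and 1.11 times the level of Eln in NC and 1.25, 1.83 and 1.83 times in SFRP2-siRNA (exact permutation p = 0.9).

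NC 2 resembled the libraries labelled SFRP2-siRNA in most members. It was the highest NC library in 9 members, whereas it was so in 33.2% of all genes tested. In 7 members, NC 2 lay within or above the SFRP2-siRNA range while NC 1 and NC 3 lay below every SFRP2-siRNA library. That pattern was found in 11.9% of all genes. NC 1 or NC 3 was at or above the lowest SFRP2-siRNA library in 1 member only, Eln. In the other 9 members both lay below every SFRP2-siRNA library, as in 25.8% of all genes. Averaged over the 10 members, the log2 level relative to each gene's own mean was −0.58, 0.23 and −0.51 in NC and 0.40, 0.24 and 0.22 in SFRP2-siRNA. Loxl1 followed this average most closely, with a root mean square difference of 0.0592 on the log2 scale from the mean of the other 9 members. Eln, with 0.496, and Fbn1, with 0.405, departed from it most.

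**Figure D3:**
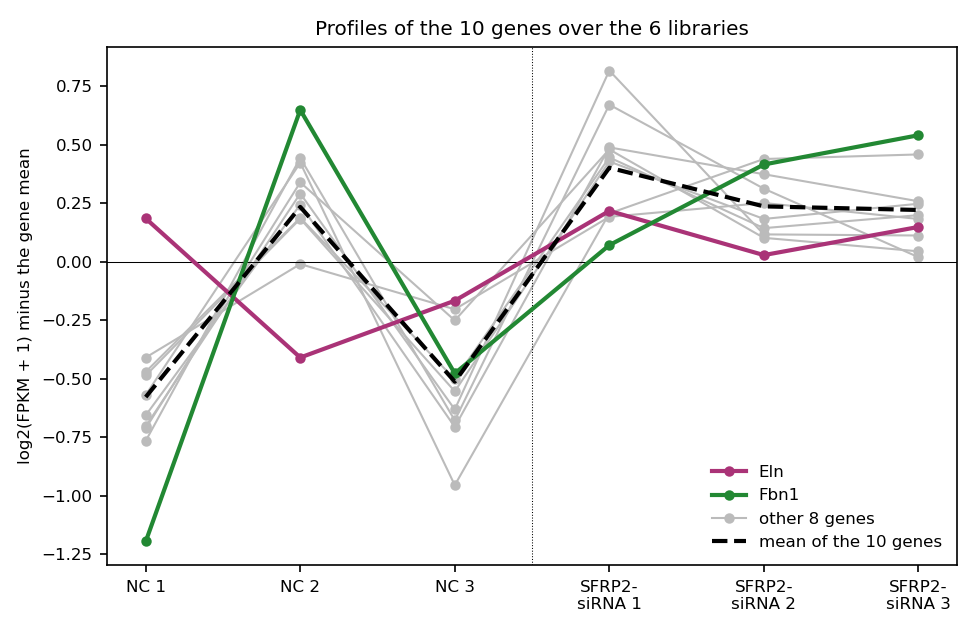
Level of each member relative to its own mean (log2(FPKM + 1), vertical axis) over the 6 libraries, with Eln in purple, Fbn1 in green, the other 8 members in grey and the average of the 10 as a dashed line. The average is −0.58 and −0.51 in NC 1 and NC 3, 0.23 in NC 2 and 0.22 to 0.40 in SFRP2-siRNA 1 to 3.

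Without NC 2, the log2 fold changes were larger in 9 members and smaller in Eln. This direction was fixed in advance, because NC 2 was the highest NC library in those 9 members and the lowest in Eln. They were 1.18 for Fbn1, 0.75 for Fbn2, 0.51 for Fbln5, 1.05 for Efemp2, 1.02 for Lox and 0.81 for Loxl1. They were 1.13 for Loxl2, 1.06 for Loxl3 and 0.69 for Loxl4, and for Eln the value was 0.12. In this fit of 5 libraries, 9 members had an unadjusted limma p under 0.05, beside 9.78% of all genes higher in SFRP2-siRNA. The groups then did not overlap in 9 members, beside 25.8% of all genes higher and 6.83% lower. No member passed the adjusted threshold, and the lowest adjusted p of a member was 0.257. Leaving out another library gave smaller changes in part. Without NC 1, the log2 fold change was 0.26 for Fbn1, 0.32 for Fbln5, 0.45 for Loxl3 and 0.16 for Loxl4. Without NC 3, it was 0.40 for Fbn2, 0.58 for Efemp2, 0.44 for Loxl1 and 0.44 for Loxl2. Without SFRP2-siRNA 1, it was 0.22 for Eln and 0.46 for Lox. These were the lowest values of each member when NC 2 was kept, and all were above 0. The distance of NC 2 from the other NC libraries was known from earlier results, and the labels give no reason to omit it. Over all genes, NC 1 was instead the NC library furthest from the others. The chi-square per gene of the reads was 112 between NC 2 and NC 3, 253 between NC 1 and NC 2, and 323 between NC 1 and NC 3. The values of NC 1 also summed to 441746 FPKM, against 358452 to 374542 FPKM in the other libraries.

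**Figure D4:**
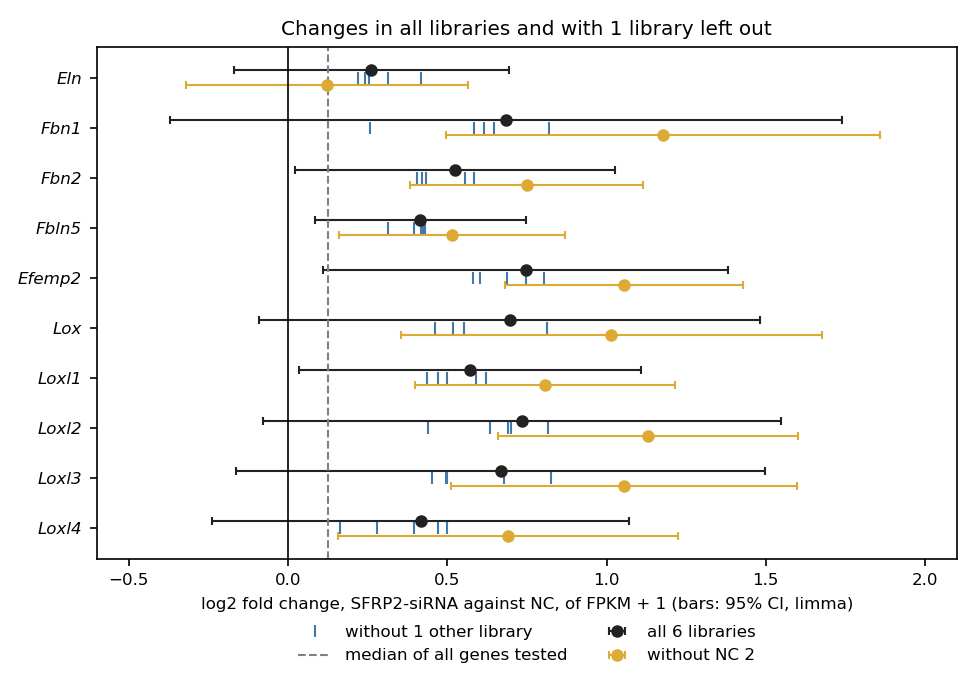
Log2 fold change of FPKM + 1, SFRP2-siRNA against NC (horizontal axis), of the 10 members in all 6 libraries (black) and without NC 2 (yellow), with 95% intervals from limma, blue ticks for the fits without 1 other library, and a dashed line at 0.13, the median of all genes tested. Without NC 2 the values range from 0.12 for Eln to 1.18 for Fbn1, and the lowest blue tick is 0.16 for Loxl4.

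Fibroblast markers were likewise at a higher level in SFRP2-siRNA. The summed level of 10 fibroblast markers was 443 to 711 FPKM in NC and 865 to 881 FPKM in SFRP2-siRNA, and the groups did not overlap in 7 of the 10, beside 13.9% of all genes in that direction. Dcn, a small collagen-binding proteoglycan, had 89.0 ± 14.7 FPKM in NC and 149 ± 9.07 FPKM in SFRP2-siRNA (SD, n = 3 each, log2 fold change 0.75, adjusted limma p = 0.518, exact permutation p = 0.1). The mean log2 level of the 10 markers was 5.20, 5.86 and 5.58 in NC and 6.20, 6.18 and 6.14 in SFRP2-siRNA, a difference of 0.63 (exact permutation p = 0.1). NC 2 was again the highest NC library. In bulk tissue, fewer cells of a type and less RNA per cell cannot be told apart.

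Relative to these fibroblast markers of the same library, 5 members were higher and 5 lower in SFRP2-siRNA. The differences on the log2 scale were 0.12 for Efemp2, 0.11 for Loxl2, 0.07 for Lox, 0.06 for Fbn1 and 0.04 for Loxl3. They were −0.05 for Loxl1, −0.10 for Fbn2, −0.21 for Fbln5, −0.21 for Loxl4 and −0.36 for Eln. Only Fbln5 did not overlap, and it was the lower value that SFRP2-siRNA held (exact permutation p = 0.1, unadjusted, the smallest possible). The share of all genes without overlap on this scale was not computed, and with such a smallest p no member could pass an adjusted p of 0.05. For Fbln5, the direction was the opposite of that of its FPKM level. Leaving out single libraries turned the sign of the small differences of Fbn1, Efemp2, Lox, Loxl1, Loxl2 and Loxl3. The lower values of Fbn2 and Loxl4 turned to 0.23 and 0.0053 with a pseudocount of 0.1, and those of Fbn2 and Loxl1 to 0.011 and 0.059 against the median of the markers.

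**Figure D5:**
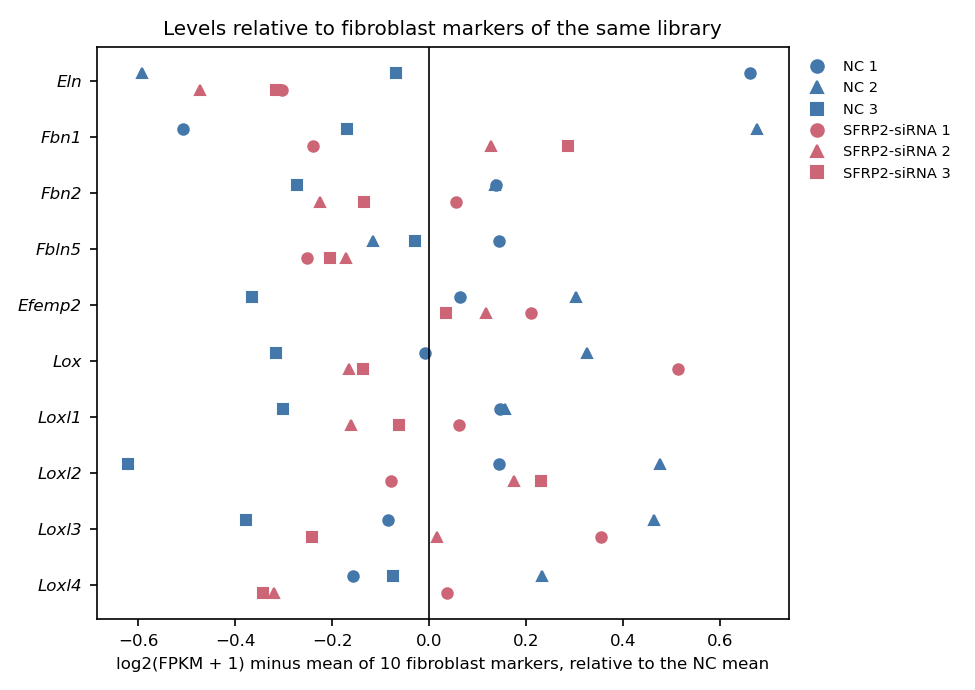
Level of each member relative to the mean of the 10 fibroblast markers in the same library (log2 scale, horizontal axis, with the NC mean of each gene at 0), with blue symbols for NC and red symbols for SFRP2-siRNA. The groups overlap in 9 members, and the spread of the NC libraries is wider than that of the SFRP2-siRNA libraries in most of them.

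Macrophage markers also differed by label, with a summed level of 965 to 1651 FPKM in NC and 1870 to 2370 FPKM in SFRP2-siRNA. Of 10 such markers, 8 had an unadjusted limma p under 0.05, all higher in SFRP2-siRNA (6.72% of all genes), and in 5 the groups did not overlap (13.9% of all genes in that direction). Lyz2, the myeloid lysozyme, had 585 ± 196 and 1047 ± 156 FPKM (SD, n = 3 each). Their part in the result was not tested. The summed levels of the other cell types, which a few abundant genes dominate, overlapped between NC and SFRP2-siRNA. They were 175 to 208 and 174 to 207 FPKM for smooth muscle, another producer of elastin, and 66.0 to 97.8 and 66.4 to 112 FPKM for endothelium. Keratinocyte markers ranged from 5121 to 8790 and from 4485 to 8515 FPKM, so the tissue held epidermis. Neutrophil markers ranged from 1143 to 1765 and from 988 to 5533 FPKM, adipocyte markers from 2116 to 2588 and from 1200 to 2918 FPKM, and skeletal muscle markers from 3328 to 6554 and from 4473 to 12487 FPKM. Gene by gene, 7 of 7 neutrophil markers had a log2 fold change above 0, with a median of 0.81, of which 1 passed the unadjusted limma threshold. All 8 skeletal muscle markers were above 0 (median 0.64) and all 8 adipocyte markers below 0 (median −0.44). Cspg4 of the mural cell list and Lor of the keratinocyte list, named after their values were seen, were lower in SFRP2-siRNA with no overlap. The part of these cell types in the result was not tested. Cartilage, another tissue rich in fibrillin, was near absent, with a summed level of its 5 markers of at most 0.739 FPKM.

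Among 24 partners of microfibril and elastic fibre assembly, 21 were tested. At an unadjusted limma p under 0.05, 4 were higher and 0 lower in SFRP2-siRNA, beside 6.72% and 2.86% of all genes. The median log2 fold change was 0.38, and 17 of the 21 were above 0, beside 71.8% of all genes. Fbln1, a fibulin that binds elastin, had 8.29 ± 1.13 and 13.1 ± 0.993 FPKM (SD, n = 3 each, log2 fold change 0.61, adjusted limma p = 0.518, exact permutation p = 0.1). Mfap2, a microfibril glycoprotein, had 26.9, 22.3 and 22.2 FPKM in NC and 33.0, 37.4 and 36.3 FPKM in SFRP2-siRNA. Neither Fbln1 nor Mfap2 had its highest NC level in NC 2. Emilin2, of the elastin interface protein family, had a log2 fold change of 0.93 (adjusted limma p = 0.518, exact permutation p = 0.1). The latent TGF-beta binding proteins differed in sign, with log2 fold changes of 0.49 for Ltbp1, −0.55 for Ltbp2, −0.32 for Ltbp3 and −0.42 for Ltbp4. None of these passed the unadjusted threshold, and Ltbp3 was lower with no overlap, as were 3.92% of all genes. The Ltbp genes were picked out after their values had been seen.

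The collagen substrates of the lysyl oxidases had the highest median log2 fold change of the pathway lists, 0.72 over 7 genes. Of these, 3 had an unadjusted limma p under 0.05, all higher, beside 6.72% of all genes in that direction. Col1a1 had 346, 627 and 254 FPKM in NC and 755, 691 and 690 FPKM in SFRP2-siRNA. Col3a1 had 235, 718 and 360 FPKM in NC and 744, 807 and 773 FPKM in SFRP2-siRNA. Col1a2 likewise had its highest NC level in NC 2, and its log2 fold change was 0.95 (adjusted limma p = 0.518, exact permutation p = 0.1). The groups did not overlap in any of these 3 collagens, which were named for their low p, as in 13.9% of all genes in that direction. In the rest of the 7 genes the groups overlapped. Col4a1 and Col4a2, chains of collagen IV, had log2 fold changes of 0.15 and 0.08, and Col5a1 and Col5a2 had 0.67 and 0.72.

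Enzymes that modify and process these substrates were examined next. Of 12 genes of collagen hydroxylation and folding, 4 were higher at an unadjusted limma p under 0.05, beside 6.72% of all genes. The median log2 fold change of the 12 was 0.45. The prolyl hydroxylase subunits P4ha3 and P4ha1 had log2 fold changes of 0.80 and 0.61, and the collagen galactosyltransferase Colgalt1 had 0.45. Of 9 tested genes of lysyl oxidase activation and copper supply, 2 were higher at that p, beside the same 6.72%. The median was 0.43, and Atox1, a copper chaperone, had a log2 fold change of −0.09. Bmp1, the protease that releases active Lox from its precursor, had 17.0, 29.0 and 19.6 FPKM in NC and 35.7, 33.4 and 31.0 FPKM in SFRP2-siRNA (log2 fold change 0.62, adjusted limma p = 0.518, exact permutation p = 0.1). Postn, a matricellular protein that supports Lox activation by Bmp1, had a log2 fold change of 0.65, and Pcolce, an enhancer of procollagen cleavage, had 0.43 and did not pass the unadjusted threshold.

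Elastin-degrading proteases and their inhibitors were both higher in part. Of 10 tested proteases, 5 were higher at an unadjusted limma p under 0.05, beside 6.72% of all genes. The median log2 fold change was 0.52. In 9 of the 10 it was above 0, and in Elane, neutrophil elastase, it was −0.24. Ctss, a lysosomal cysteine protease of macrophages, had 121, 279 and 178 FPKM in NC and 499, 352 and 319 FPKM in SFRP2-siRNA, a log2 fold change of 1.07 (SE 0.35, adjusted limma p = 0.518, exact permutation p = 0.1). Mmp2 and Mmp14, a gelatinase and its membrane-bound activator, had log2 fold changes of 0.84 and 0.47. Of 7 inhibitors, 2 were higher at that p, beside the same 6.72%, with a median of 0.56. The log2 fold change was above 0 in 5 of the 7, and Timp3 and Timp4 had −0.32 and −0.23. Serpinb1a, an inhibitor of neutrophil elastase, had a log2 fold change of 0.79, and Timp2, an inhibitor of metalloproteinases, had 0.56. Slpi, a secreted inhibitor of neutrophil elastase, had 47.7, 45.5 and 38.4 FPKM in NC and 135, 123 and 30.2 FPKM in SFRP2-siRNA, so its groups overlapped.

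Receptors of elastin and fibrillin, TGF-beta genes and hypoxia genes completed the comparison. Among 11 receptor genes the median log2 fold change was 0.34. At an unadjusted limma p under 0.05, 3 were higher, beside 6.72% of all genes. These were Itgb3, an integrin subunit that binds fibrillin, with 0.64, and Neu1 and Glb1 of the elastin receptor complex, with 0.39 each. Of 9 TGF-beta genes, 2 were higher at that p, beside the same 6.72%, with a median of 0.34. Tgfbi, a target of the pathway, had 0.96, the receptor Tgfbr2 had 0.54 and the ligand Tgfb3 had 0.34 without passing it. Hypoxia is known to induce several lysyl oxidases. Of 11 hypoxia-responsive genes, 0 passed the unadjusted limma threshold in either direction, beside 9.58% of all genes. Their median was −0.02, which turned to 0.072 when the libraries were scaled to equal sums. Adm, Ankrd37 and Car9 had the lowest p of that list, with log2 fold changes of 0.71, 0.26 and −0.19. Over the 9 lists, 25 of 97 tested genes were higher at an unadjusted limma p under 0.05, beside 6.72% of all genes, and 0 passed the adjusted threshold. The count was 10 under median-of-ratios scaling and 11 under quantile normalization, where 2.74% and 2.96% of all genes were higher. The count of 25 was 12, 41 and 11 without NC 1, 2 and 3 and 15, 10 and 22 without SFRP2-siRNA 1, 2 and 3.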

How the data were processed

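Paired-end mRNA libraries of wound tissues were sequenced by the authors, whose processing notes name HISAT2, featureCounts and Subread, with no version or role. The genome build and annotation were not given in the sources used here. The authors deposited 1 table of FPKM values for 33184 gene IDs. FPKM is not a count, so the DESeq2 test of the study was replaced by limma 3.58.1 in R 4.3.3 (two-sided, eBayes with trend) on log2(FPKM + 1), a pseudocount of 1. Genes averaging 0.5 FPKM or more were tested, with Benjamini-Hochberg adjustment over all 16005. With GENCODE vM21 gene lengths, 98.8% of genes with a length gave whole reads within 0.02 reads, from which library totals were derived. Even numbers made up 64.6% of values from 1 to 20 reads, so mates were counted singly and reads are not independent. limma voom on these reads was added after the data were seen, and it called 0 of 15709 genes at the adjusted threshold and 1510 at an unadjusted p under 0.05. Exact permutation tests used scipy 1.17.1. Fits were tested on simulated data with 200 changed genes, each gene drawn independently with its own spread. A change of 1 log2 unit passed the adjusted p of 0.05 in 39.4% of them and a change of 2 in 87.4%. The changes of the members in the main fit were smaller than either.

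Groups were taken from the labels and libraries were treated as replicates. No 2 libraries of a group agreed within sampling noise, with a chi-square per gene of at least 112. The 10 members, the 9 pathway lists, the 10 marker lists and the tests were chosen with earlier results of these data known. The named genes were Sfrp2, the members, up to 3 genes with the smallest unadjusted p in each pathway list, up to 2 genes with the highest mean in a marker list and the 5 genes (mean of at least 5 FPKM) nearest to the average profile of the members. As alternatives, each library was left out, 3 other scalings and sample weights were tried, the replicate number served as a block, the trend was dropped, the pseudocount was set to 0.1 and the filter was removed or raised to 2 FPKM. Levels relative to fibroblast markers were also taken against the median of the markers. Exon overlaps were computed from GENCODE vM21.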

Additional observations from a re-analysis of the deposited data

How the results depend on the processing

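The log2 fold change of each member kept its sign in all 169 fits under 17 alternatives, and 0 members and 0 genes passed the adjusted threshold in any of them. The lowest adjusted p was 0.240 for a member and 0.119 for any gene. Ranges were 0.10 to 0.42 for Eln, 0.26 to 1.18 for Fbn1, 0.34 to 0.94 for Fbn2 and 0.27 to 0.51 for Fbln5. They were 0.58 to 1.05 for Efemp2, 0.37 to 1.02 for Lox and 0.40 to 0.81 for Loxl1. For Loxl2, Loxl3 and Loxl4 they were 0.44 to 1.13, 0.45 to 1.06 and 0.16 to 0.69. Scaling moved the median of all genes from 0.13 to 0.20 with equal sums, 0.00463 with median-of-ratios factors and 0.0257 with quantile normalization. Of genes at an unadjusted p under 0.05, 1075 were higher and 458 lower as deposited, 438 and 747 with median-of-ratios factors and 474 and 689 with quantile normalization. The 4 members at that p became 1 with median-of-ratios factors, 1 with quantile normalization, 1 with voom and median-of-ratios library sizes, and 2 with sample weights. In the same order, 2.74%, 2.96%, 2.68% and 8.85% of all genes were higher at that p. The sample weights ranged from 0.36 for NC 1 to 5.27 for SFRP2-siRNA 2. The 25 pathway genes became 10, 11 and 10 with median-of-ratios factors, quantile normalization and voom with median-of-ratios library sizes. Leaving out 1 library gave 0 to 9 members, 10 to 41 pathway genes and 887 to 1970 of all genes, against 1533. The causes were not tested.

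Libraries with the same number deviated together for number 3 (correlation 0.38) but not for numbers 1 and 2 (−0.05 and −0.15), so the numbers were not taken to pair the samples. With the replicate number as a block, 2 members had an unadjusted p under 0.05, and 1929 of all genes did.

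The median of the hypoxia genes turned positive with a filter at 2 FPKM (0.045), equal sums (0.072) and sample weights (0.098), and ranged from −0.0451 to 0.0577 when 1 library was left out. Leaving out 1 library also turned the sign of several small differences in share, in percentage points, which ranged from −2.59 to 2.61 for Lox, −0.40 to 3.93 for Loxl2, −0.066 to 0.79 for Loxl3, −0.31 to 0.11 for Loxl4 and −0.18 to 1.18 for the Fbn2 share. Relative to the fibroblast markers the ranges were −0.20 to 0.40 for Fbn1, −0.062 to 0.27 for Efemp2, −0.15 to 0.23 for Lox, −0.20 to 0.024 for Loxl1, −0.20 to 0.35 for Loxl2 and −0.15 to 0.27 for Loxl3. There, a pseudocount of 0.1 gave 0.23 for Fbn2 and 0.0053 for Loxl4, and the median of the markers gave 0.011 for Fbn2 and 0.059 for Loxl1. Loxl4 and Fbn2 rested on the fewest reads.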

Other observations

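The 5 genes outside the members whose levels over the 6 libraries lay nearest to the average profile of the members were Medag, Prrx1, Tgfbr2, Cebpd and P3h1. Their root mean square differences from that profile on the log2 scale were 0.0383, 0.0634, 0.0655, 0.0670 and 0.0671. Prrx1 encodes a homeobox factor of mesenchymal cells, Cebpd a leucine zipper transcription factor and P3h1 a collagen prolyl hydroxylase. Medag had 3.32 and 6.66 FPKM in NC 1 and NC 2, and its higher level in NC 2 follows from how these genes were picked. The 6 libraries are few for such a ranking, and it is a description.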
